A study of Mus musculus with 6 samples.

Results

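This is an account of 39 genes of the lysosome in mouse P19 cells: 13 proteases (11 cathepsins, legumain and Tpp1), 8 glycosidases, 8 lipid and sulfate hydrolases with their cofactors, 8 membrane proteins, and 2 genes that serve enzyme delivery and lysosomal gene control, M6pr and Tfeb. The genes were listed by name, each with a known lysosomal role, when earlier results of these data were already known, so shares of the list that changed are descriptions. Each was found on the array through the gene symbol that belongs to the RefSeq accession of its probe. All 39 were among the 17178 genes so identified, on 57 probes, and 14 of them had several probes. The probe of a gene with the highest mean signal was used, and the other probes are given where they differ. A gene was tested if its probe was well above background, as the scanner software marks it, on at least 2 of the 6 arrays. Of the 39 genes, 37 passed, as did 13381 genes in all. Ctss and Hexa did not pass and are given as values.

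P19 is an embryonal carcinoma line that can form neurons. The study compared P19 cells expressing AICD, the intracellular fragment of the amyloid precursor protein that gamma-secretase releases, with P19 cells that carried pCDNA alone. RNA was taken from undifferentiated cells of both lines, after 4 days as aggregates in all-trans-retinoic acid, which are called aggregated, and 2 days after those aggregates had been replated, which are called differentiated. Each of these 6 groups had 1 array of total RNA labelled with Cy3. The labels do not say whether a line is 1 clone or a pool, nor which promoter drives AICD. In RNA from whole cultures, fewer cells of a type and less RNA per cell cannot be told apart.

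Values are normalized log2 signals, in which 0 is the 75th percentile of the signal of that array, so a step of 1 is a 2-fold difference. A level of one gene cannot be set against that of another, because probes differ in brightness. Each array had 43379 spots other than controls, of which 62 to 65.9% were well above background and 0 were saturated, and the 75th percentile lay between 529 and 878 intensity units. Spots of the same probe on an array had a median SD of 0.0679 to 0.0824 (log2). With 1 array per line and state, every comparison of a gene used the same residual spread: how far its line difference varied between the 3 states. The steps between states of a gene therefore have the same SE, which is not particular to a step. limma also drew this spread toward that of all genes, with 2 residual and 2.05 prior degrees of freedom. The fit was made with limma on all genes tested, p-values are two-sided, and a gene is called at a Benjamini-Hochberg adjusted p of 0.05 over all genes. These errors contain no spread between cultures of the same line and state. The undifferentiated arrays were on one slide and the other 4 on another, so the undifferentiated state and the slide cannot be told apart, while the lines were present on both slides.

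Lysosomes are acidic organelles that break down proteins, glycans, lipids and nucleic acids delivered by endocytosis and autophagy. Their enzymes are made in the endoplasmic reticulum, tagged with mannose 6-phosphate in the Golgi and carried onward by mannose 6-phosphate receptors. Membrane proteins such as Lamp1 and Lamp2 line the organelle, and other membrane proteins let ions, lipids and breakdown products pass. Many of the genes share a promoter element, a palindromic E-box, that the transcription factor Tfeb and its relatives bind. In developing neurons lysosomal turnover is well known for its inherited failures, which cause storage disease with neurodegeneration.

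RefSeq promoters of build GRCm38.p6, from 250 bases before to 50 bases after the start of transcription, were present for 33 of the 39 genes. The core of the shared element, CACGTG, which reads the same on both strands, lay in a promoter of 13 of these 33 genes (39.4%) and of 2187 of 27025 genes in all (8.09%), or 7.15% of 32851 promoters. The 250 bases before the start are shown for Ctsc, whose line difference was the largest of the 37, for Ctso, whose lines were at least 2-fold apart in opposite directions in 2 states, and for Lamp1, which held 4 copies of the core. Capitals mark CACGTG.
Ctsc (chr7:88277835-88278084, plus strand): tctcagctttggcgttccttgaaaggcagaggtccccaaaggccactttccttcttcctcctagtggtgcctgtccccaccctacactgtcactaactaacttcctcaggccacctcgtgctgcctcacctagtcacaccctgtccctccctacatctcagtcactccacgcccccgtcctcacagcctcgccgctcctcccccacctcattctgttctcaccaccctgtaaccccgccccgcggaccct
Ctso (chr3:81932351-81932600, plus strand): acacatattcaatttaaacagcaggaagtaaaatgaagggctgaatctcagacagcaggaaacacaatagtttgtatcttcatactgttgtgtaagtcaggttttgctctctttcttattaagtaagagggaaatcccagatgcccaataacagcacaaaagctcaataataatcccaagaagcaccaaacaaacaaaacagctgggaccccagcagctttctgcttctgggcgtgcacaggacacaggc
Lamp1 (chr8:13158911-13159160, plus strand): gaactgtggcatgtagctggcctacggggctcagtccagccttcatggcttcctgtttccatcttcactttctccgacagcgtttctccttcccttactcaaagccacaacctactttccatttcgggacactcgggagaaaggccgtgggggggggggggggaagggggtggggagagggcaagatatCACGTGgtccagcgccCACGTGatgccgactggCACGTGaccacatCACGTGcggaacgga
The core was absent from these letters of Ctsc and Ctso. In Lamp1 its 4 copies began 61, 45, 28 and 15 bases before the start.

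Between the lines, 2 of the 37 genes were called, Ctsc and Slc48a1, both higher in the AICD line (5.41%; of all genes tested 0.351% were called, 0.209% higher and 0.142% lower). None was called lower. At an unadjusted p at or below 0.05 there were 5 (13.5%, against 12.5% of all genes): the same 2 with Lipa, Lgmn and Gusb. The median line difference of the 37 was 0.06, beside 0.00 for all genes. In 2 of the 37 genes (5.41%) all 3 AICD arrays lay above all 3 vector arrays, Ctsc and Slc48a1, beside 2.36% of all genes, and in 0 they lay below, beside 2.76%.

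Ctsc encodes cathepsin C, the dipeptidyl peptidase that activates serine proteases of immune cells. Its normalized log2 signal was -1.75, -4.93 and -5.53 on the undifferentiated, aggregated and differentiated vector arrays and 1.85, -0.68 and -1.35 on the AICD arrays. Each AICD array was above every vector array, and both lines were lower after aggregation. The AICD line was 3.60, 4.26 and 4.18 higher on the log2 scale in the 3 states, a fitted difference of 4.01 ± 0.19 (SE), or 16.1-fold, with a limma adjusted p of 0.0279. Across states Ctsc fell by 2.86 ± 0.23 in aggregation (7.24-fold, adjusted p = 0.0108) and by 3.49 ± 0.23 over the whole course (11.3-fold, adjusted p = 0.00509). On the 4 arrays of the second slide alone the line difference was 4.22 (limma adjusted p = 0.0365). Without either aggregated array or either differentiated array the line difference was 3.89 or 3.93. With any 1 of these arrays left out the call was lost, as were the line calls of all other genes. With a normexp background correction the difference was 2.69 and was called, and without the filter on dim probes it was not called (adjusted p = 0.068).

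Slc48a1, a heme transporter of endosomes and lysosomes, was at -0.44, -0.88 and -1.37 on the vector arrays and at 1.35, 1.14 and 0.46 on the AICD arrays. The lines did not overlap, and the difference was 1.79, 2.02 and 1.83 in the 3 states. The fitted line difference was 1.88 ± 0.13 (3.68-fold, limma adjusted p = 0.0383). A second, dimmer probe of Slc48a1 gave a smaller difference in the same direction, 0.72, 1.42 and 0.76 in the 3 states, and the mean of the probes was 1.42 (adjusted p = 0.0831). Without the filter on dim probes the adjusted p was 0.0812. The call was lost when any 1 array was left out: the adjusted p was 0.0641 without either undifferentiated array, which leaves the line difference of the second slide alone, 0.243 without either aggregated array and 0.224 without either differentiated array.

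The other members lay closer together. Differences are AICD minus vector within a state and are those of 2 arrays with no replicate, both well above background. In the undifferentiated state 5 of 36 genes differed by at least 2-fold (8.32% of all genes did): Ctsc, Ctso and Slc48a1, which makes 3, were the higher in AICD cells (4.21% of all genes), and the other 2, Ctsz and Gusb, the lower (4.11%). In the aggregates 2 of 35 were higher (Ctsc, Slc48a1; 4.21% of all genes) and 0 lower (3.12%; 7.33% in either direction). After replating 2 of 36 were higher, again Ctsc and Slc48a1 (4.62% of all genes), and 1 was lower, Ctso (3.96%; 8.57% in either direction). The lines were within 0.5 of each other on the log2 scale for 27 of 36, 30 of 35 and 28 of 36 genes. Just short of 2-fold were Ctsh at -0.99 and Lamp2 at 0.95 in undifferentiated cells, Idua at -0.93 in aggregates and Gla at 0.97 in differentiated cells. The line difference had the same sign in all 3 states for 11 higher (29.7%; 17.2% of all genes) and 5 lower genes (13.5%; 18.6%).

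**Figure D1:**
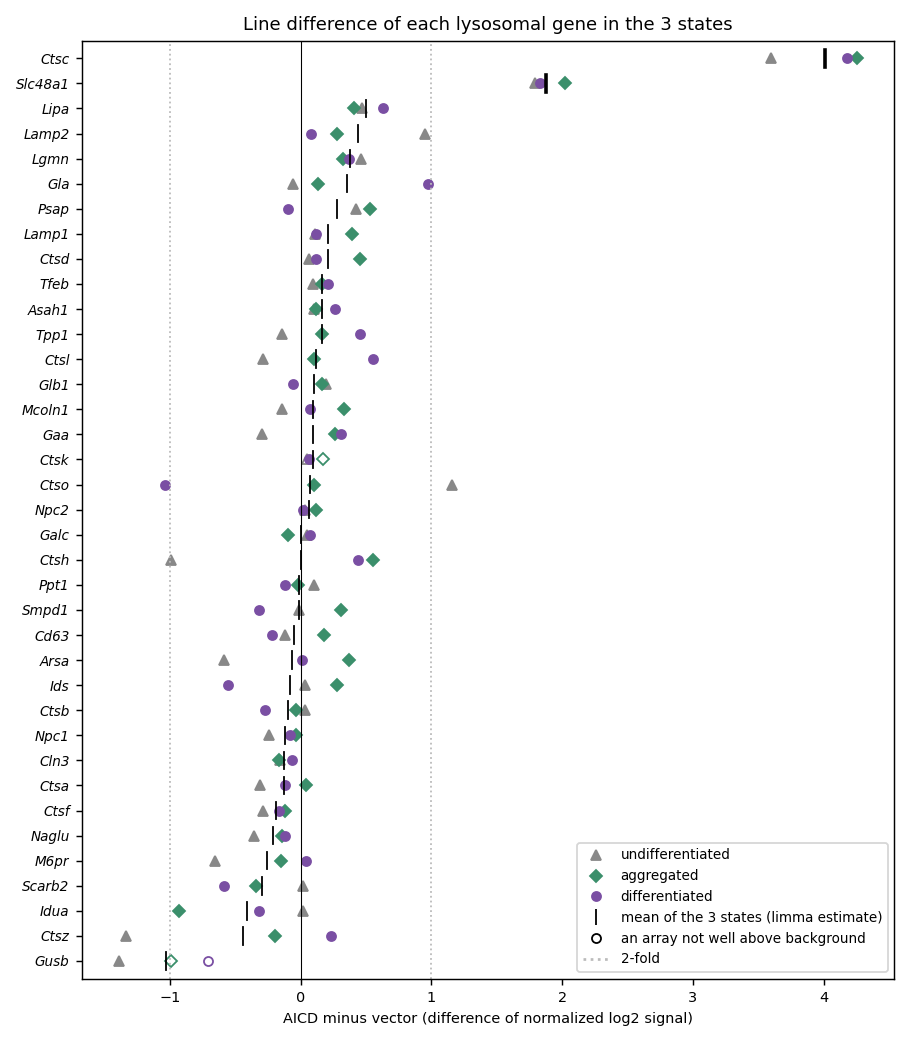
Difference in normalized log2 signal between the AICD and the vector line for each of the 37 genes, in the undifferentiated (triangles), aggregated (diamonds) and differentiated (circles) state; bars are limma's mean over the states, thick where called, open symbols mark a pair with an array not well above background, and dotted lines mark 2-fold. Ctsc (3.60 to 4.26) and Slc48a1 (1.79 to 2.02) stand to the right of 2-fold in every state, and Ctso lies on both sides of 0.

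Between states more genes were called. In aggregation, 6 of the 37 rose (16.2%; 14.3% of all genes tested) and 10 fell (27%; 27.9% of all genes), together 43.2% beside 42.1% of all genes. Over the whole course from undifferentiated to differentiated cells, 7 were called higher, among them Ctsk, which was measured only in the differentiated state (18.9%; 20.1% of all genes), and 15 fell (40.5%; 41.3% of all genes), together 59.5% beside 61.4%. These shares are near those of all genes, as were those at an unadjusted p at or below 0.05: 48.6% beside 55.4% in aggregation and 64.9% beside 67.2% over the whole course. In replating, differentiated against aggregated, 0 of 37 and 0 of 13381 genes were called by limma (0% in all), and 11 of 37 had an unadjusted p at or below 0.05 (29.7%, beside 32.4% of all genes). When every array had to be well above background, which leaves out Ctsk and Gusb, 8 genes were higher and 14 lower over the whole course. Of all genes 7561 of 11503 were then called, 32.2% of them higher. The median of the 37 was -0.03 in aggregation and -0.10 over the whole course, while that of all genes was -0.31 and -0.44.

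Within each line the steps are differences of 2 arrays, with no test. In aggregation 5 of 36 genes were at least 2-fold higher in the vector line (11.8% of all genes) and 4 of 35 in the AICD line (10.8%), and Ctso, Galc, Naglu and Ppt1 were in both sets. At least 2-fold lower were 10 of 36 in the vector line (22.1% of all genes) and 6 of 35 in the AICD line (17.2%). Ctsh, Ctsl, Ctsz and Arsa were among the lower genes of the vector line and not of the AICD line. In replating the vector line had 2 higher (Ctso and Ids; 11.1% of all genes) and 2 lower (Ctsh and Tpp1; 11.3%), and the AICD line 0 higher (6.69%) and 1 lower (Ctsh; 4.5%). Over the whole course the vector line had 4 genes that far up (17.4% of all genes) and 10 that far down (33.3%), and the AICD line 2 (13.2%) and 6 (24.7%). Whether the lines differed in these counts was not tested.

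The direction of small steps depended on the scaling. The median of all genes was below 0, and with quantile normalization it was -0.12 in aggregation and -0.24 over the whole course. Of all genes called in aggregation 33.8% were higher, and 44.4% with quantile normalization, and of those called over the whole course 32.8% were higher, and 40.3% with quantile normalization. For the 37 genes the whole course then had 13 higher and 10 lower in place of 7 and 15. The calls of Ctsd, Ctsl, Lamp1, M6pr and Tpp1 as lower were lost, Lamp1 with its sign turned to 0.14, and Cd63, Ctsb, Lamp2, Mcoln1, Npc2 and Psap were called higher. In aggregation the split was 7 higher and 9 lower in place of 6 and 10, with Cd63 gained and Ctsd lost.

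Single arrays also bore on these counts. The calls over all genes fell too, in aggregation and over the whole course, with any array left out, so the losses are not particular to the 37 genes. Without the aggregated array of either line 0 of the 37 genes were called in aggregation, without the undifferentiated vector array 1, without the undifferentiated AICD array 13 and without either differentiated array 12. Over the whole course 2 were called without the differentiated vector array, 8 without the undifferentiated vector array, 11 without either aggregated array, 12 without the differentiated AICD array and 17 without the undifferentiated AICD array. The limma adjusted p of Ctsc over the whole course stayed at or below 0.0492 in each of these.

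**Figure D2:**
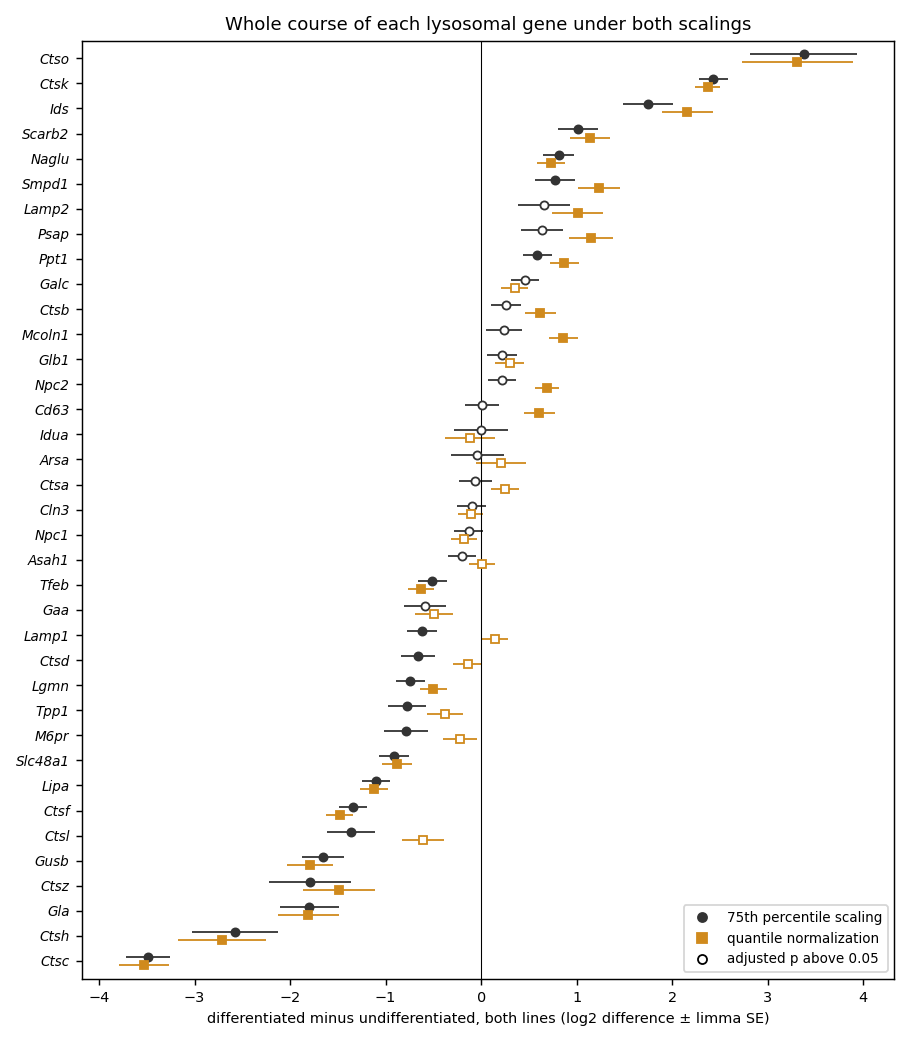
Whole course (differentiated minus undifferentiated, both lines, log2 difference ± limma SE) of the 37 genes under 75th percentile scaling (circles) and quantile normalization (squares), with open symbols where the adjusted p was above 0.05. Ctso stands highest at 3.38 and Ctsc lowest at -3.49 under the percentile scaling, and Lamp1 lies on opposite sides of 0 under the 2 scalings (-0.62 and 0.14).

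Of 12 proteases tested, 8 fell over the whole course (41.3% of all genes did) and 2 were higher, Ctso and Ctsk (20.1% of all genes). Ctsk was measured only in the differentiated state. The median of the 12 was -0.76, beside -0.44 for all genes. With quantile normalization 5 were lower (33.9% of all genes) and 3 higher (22.9%), Ctsk again among them. Cysteine and aspartic cathepsins digest proteins in the lysosome, mostly as endopeptidases. Ctsl, cathepsin L, was at 6.13, 5.11 and 4.36 on the vector arrays and at 5.85, 5.22 and 4.91 on the AICD arrays. It was lower in each later state in both lines, and the whole course was -1.36 ± 0.25 (2.57-fold, limma adjusted p = 0.0148), or -0.61 with an adjusted p of 0.0827 under quantile normalization. Ctsd, the main aspartic cathepsin, was at 4.10, 3.10 and 3.41 in the vector line and at 4.16, 3.55 and 3.53 in the AICD line. The undifferentiated arrays were the highest, and the whole course was -0.66 ± 0.18 (limma adjusted p = 0.0355), or -0.14 with an adjusted p of 0.467 under quantile normalization.

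Ctsf, cathepsin F, was at -2.08, -3.73 and -3.48 on the vector arrays and at -2.37, -3.84 and -3.66 on the AICD arrays. Both undifferentiated arrays were above the other 4, and Ctsf fell by 1.56 ± 0.15 in aggregation (2.94-fold, limma adjusted p = 0.0124; 1.03 with a normexp correction). Ctsh, an aminopeptidase, was at -2.05, -3.96 and -5.35 in the vector line and at -3.04, -3.42 and -4.91 in the AICD line. Its levels fell by 2.58 ± 0.45 over the whole course (5.99-fold, limma adjusted p = 0.013), or by 1.45 with a normexp correction. Its line difference was -0.99, 0.55 and 0.44 in the 3 states. Ctsz, a carboxypeptidase, was at 3.65, 1.66 and 1.07 in the vector line and at 2.30, 1.46 and 1.30 in the AICD line. The undifferentiated vector array was the highest, and the lines differed by -1.34 there, by -0.20 in aggregates and by 0.23 in differentiated cells. A second probe of Ctsz gave -1.33, -0.15 and 0.19. Over the whole course Ctsz fell by 1.79 ± 0.43 (3.46-fold, limma adjusted p = 0.0265).

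Ctso, cathepsin O, a widely expressed cysteine protease, rose the most of the 37 genes over the whole course. It was at -5.02, -1.79 and -0.55 on the vector arrays and at -3.87, -1.69 and -1.59 on the AICD arrays. Both undifferentiated arrays were the lowest, the aggregated arrays were 0.10 apart, and the AICD line was 1.16 higher before and 1.04 lower after the course (a line difference of 1.16 and -1.04). Aggregation was 2.71 ± 0.56 (6.53-fold, limma adjusted p = 0.0298) and the whole course 3.38 ± 0.56 (10.4-fold, adjusted p = 0.012). The line difference over the states was 0.07 ± 0.46 (adjusted p = 0.973). With a normexp correction aggregation was 1.27, the whole course 1.8 and the undifferentiated line difference 0.16, and both steps were still called.

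Ctsk, the collagen-degrading cathepsin K of osteoclasts, was well above background only on the differentiated arrays. Its signal was -7.90, -7.80 and -5.46 on the vector arrays and -7.84, -7.62 and -5.41 on the AICD arrays. Against the dimmest signals that counted as above background, the differentiated arrays were at least 1.32-fold higher than the undifferentiated and at least 1.33-fold higher than the aggregated ones. Its call over the whole course used readings that were not well above background on 4 of the 6 arrays. Ctsk also passed the filter through the arrays on which it was high. Its place among the higher genes, in each count over the whole course, is therefore a description, and no p is given. With a normexp correction the whole course was -0.07 and was not called. Ctss, a cathepsin of antigen-presenting cells, was not well above background on any of the 6 arrays, where it read between -7.99 and -6.21.

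Legumain and Tpp1 complete the proteases. Lgmn, the asparaginyl endopeptidase, was at 1.82, 0.89 and 1.12 in the vector line and at 2.28, 1.22 and 1.49 in the AICD line. Within each state the AICD array was the higher, by 0.32 to 0.46, with a line difference of 0.38 ± 0.12 (limma adjusted p = 0.344), and Lgmn fell by 0.99 ± 0.15 in aggregation (adjusted p = 0.0174). Tpp1, a tripeptidyl peptidase whose loss causes a childhood neuronal ceroid lipofuscinosis, was at 3.53, 3.46 and 2.45 in the vector line and at 3.39, 3.62 and 2.90 in the AICD line. Only the differentiated arrays were low, with a whole course of -0.78 ± 0.20 (limma adjusted p = 0.0337), or -0.38 with an adjusted p of 0.164 under quantile normalization. A second Tpp1 probe gave -0.27. Ctsa, the carboxypeptidase that protects beta-galactosidase and sialidase, ranged from 2.28 to 2.75 over the 6 arrays, and Ctsb, cathepsin B, from 2.63 to 3.03, with whole courses of -0.06 and 0.26 that were not called (limma adjusted p = 0.777 and 0.231). The dimmest of the 3 Ctsa probes gave 0.74.

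**Figure D3:**
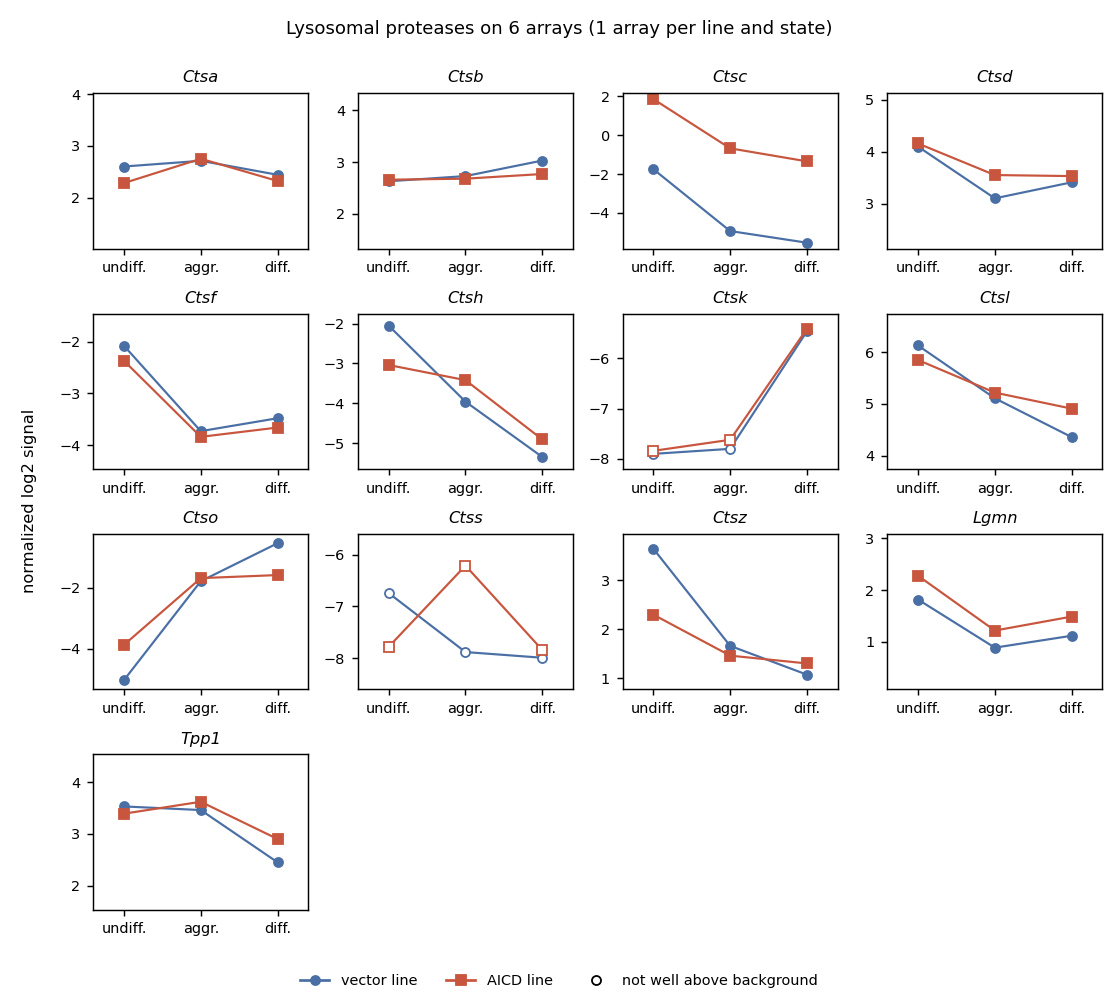
Normalized log2 signal of the 13 proteases in the 3 states, vector line as circles and AICD line as squares, 1 array per point, open where not well above background; the axes of the panels differ. Ctsc is the panel in which the lines stand apart throughout (a fitted 4.01), and in Ctso the lines cross.

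Of 7 glycosidases tested, 1 rose over the whole course, 2 fell and 4 were not called, under both scalings. Of all genes 20.1% rose and 41.3% fell, or 22.9% and 33.9% with quantile normalization. The median of the 7 was 0.00, beside -0.44 for all genes. Gla, alpha-galactosidase A, which is deficient in Fabry disease, was at 0.34, -1.62 and -1.97 on the vector arrays and at 0.28, -1.49 and -1.0 on the AICD arrays. Both undifferentiated arrays were the highest, and Gla fell by 1.86 ± 0.31 in aggregation (3.64-fold, limma adjusted p = 0.02). Naglu, which removes N-acetylglucosamine from heparan sulfate, was at -1.94, -0.69 and -1.25 in the vector line and at -2.30, -0.83 and -1.37 in the AICD line. The aggregated arrays were the highest of each line, with a rise of 1.36 ± 0.16 in aggregation (2.57-fold, limma adjusted p = 0.0133) and of 0.81 ± 0.16 over the whole course (adjusted p = 0.0161).

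Galc, the galactosylceramidase of myelin lipids, was at -5.03, -3.85 and -4.58 in the vector line and at -4.98, -3.96 and -4.51 in the AICD line. It too was highest in the aggregates, by 1.1 ± 0.15 (2.15-fold, limma adjusted p = 0.0158), where the lines were 0.10 apart. With a normexp correction the step was not called (0.27). A second Galc probe was not well above background on the undifferentiated vector array, and read -4.21 and -4.35 on the later vector arrays. On the AICD arrays it read -4.67, -4.27 and -4.20 in the 3 states, so there it was highest in differentiated cells. Gusb, beta-glucuronidase, was at -3.56, -5.56 and -5.57 in the vector line and at -4.95, -6.55 and -6.28 in the AICD line, and 1 of 3 AICD arrays, the undifferentiated one, was well above background. The vector array was the higher in each state, by 1.39 (log2) in undifferentiated cells and by at least 1.14-fold and 1.28-fold in the later states, with a limma adjusted p of 0.16 over the 3 states. Gusb was lower in aggregates than in undifferentiated cells, with a step of -1.99 (log2) in the vector line and of at least 1.73-fold in the AICD line (limma adjusted p = 0.0143 over both, and 0.0991 with a normexp correction).

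Hexa, the alpha subunit of hexosaminidase A, which is lost in Tay-Sachs disease, was well above background on the undifferentiated vector array alone, at -5.04. That array was at least 1.67-fold higher than the undifferentiated AICD array and at least 1.86-fold and 1.95-fold higher than the aggregated and differentiated vector arrays. These are single arrays with no test. Idua, alpha-iduronidase, was at -4.67, -3.67 and -4.50 in the vector line and at -4.65, -4.60 and -4.82 in the AICD line. The aggregated vector array stood above the other 5, and no Idua comparison was called. Gaa, the acid alpha-glucosidase of glycogen, ranged from 0.19 to 1.09 and Glb1, beta-galactosidase, from 0.31 to 0.65, and neither was called in any comparison.

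Among the 8 lipid and sulfate hydrolases and cofactors, 3 rose over the whole course (20.1% of all genes), 1 fell (41.3%) and 4 were not called. Their median was 0.41, beside -0.44 for all genes. With quantile normalization 5 were higher (22.9% of all genes) and 1 lower (33.9%). Ids, iduronate-2-sulfatase, which starts the breakdown of heparan and dermatan sulfate, was at 2.04, 2.31 and 4.09 on the vector arrays and at 2.08, 2.60 and 3.53 on the AICD arrays. The differentiated arrays stood apart from the other 4, and the whole course was 1.75 ± 0.26 (3.37-fold, limma adjusted p = 0.0099). Its 3 dimmer probes were well above background on 2 or 3 of the 6 arrays and on at most 1 undifferentiated array, so their steps are not given. The replating step of Ids, 1.36 ± 0.26, was not called (limma adjusted p = 0.077), except with a normexp correction, under which Ids rose and Tpp1 fell.

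Ppt1, a thioesterase that removes palmitate from proteins and is mutated in infantile neuronal ceroid lipofuscinosis, was at 1.76, 3.12 and 2.46 in the vector line and at 1.86, 3.10 and 2.33 in the AICD line. The lines were within 0.12 of each other in every state, and Ppt1 rose by 1.30 ± 0.15 in aggregation (2.46-fold, limma adjusted p = 0.0138). Smpd1, acid sphingomyelinase, was at 2.99, 2.97 and 3.91 in the vector line and at 2.97, 3.28 and 3.59 in the AICD line. Its highest arrays were the differentiated ones, with a whole course of 0.77 ± 0.21 (limma adjusted p = 0.0378, and 0.051 without the filter on dim probes). Lipa, the acid lipase of cholesteryl esters, was at -0.29, -1.49 and -1.47 in the vector line and at 0.17, -1.08 and -0.84 in the AICD line. Lipa fell by 1.23 ± 0.15 in aggregation (limma adjusted p = 0.0144), and the AICD array was the higher in each state by 0.41 to 0.63, a line difference of 0.50 ± 0.13 that was not called (adjusted p = 0.265).

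Npc2, the soluble carrier that hands cholesterol to Npc1, was at 3.35, 3.93 and 3.58 in the vector line and at 3.38, 4.05 and 3.60 in the AICD line. It was highest in aggregates in both lines, by 0.62 ± 0.15 (limma adjusted p = 0.0366). Psap, the precursor of the saposins that present lipids to hydrolases, was at 3.14, 3.43 and 4.05 in the vector line and at 3.57, 3.96 and 3.95 in the AICD line. Its whole course of 0.64 was not called (limma adjusted p = 0.0655), and was 1.15 and called with quantile normalization (adjusted p = 0.0202). A second Psap probe gave 1.01. Psap was also called higher with the mean over its probes and when every array had to be well above background. It was not called with a normexp correction or without the filter on dim probes. Arsa, arylsulfatase A, was at 2.12, 1.04 and 1.79 in the vector line and at 1.53, 1.41 and 1.80 in the AICD line, and Asah1, acid ceramidase, ranged from 1.13 to 1.51. Neither was called in any comparison.

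**Figure D4:**
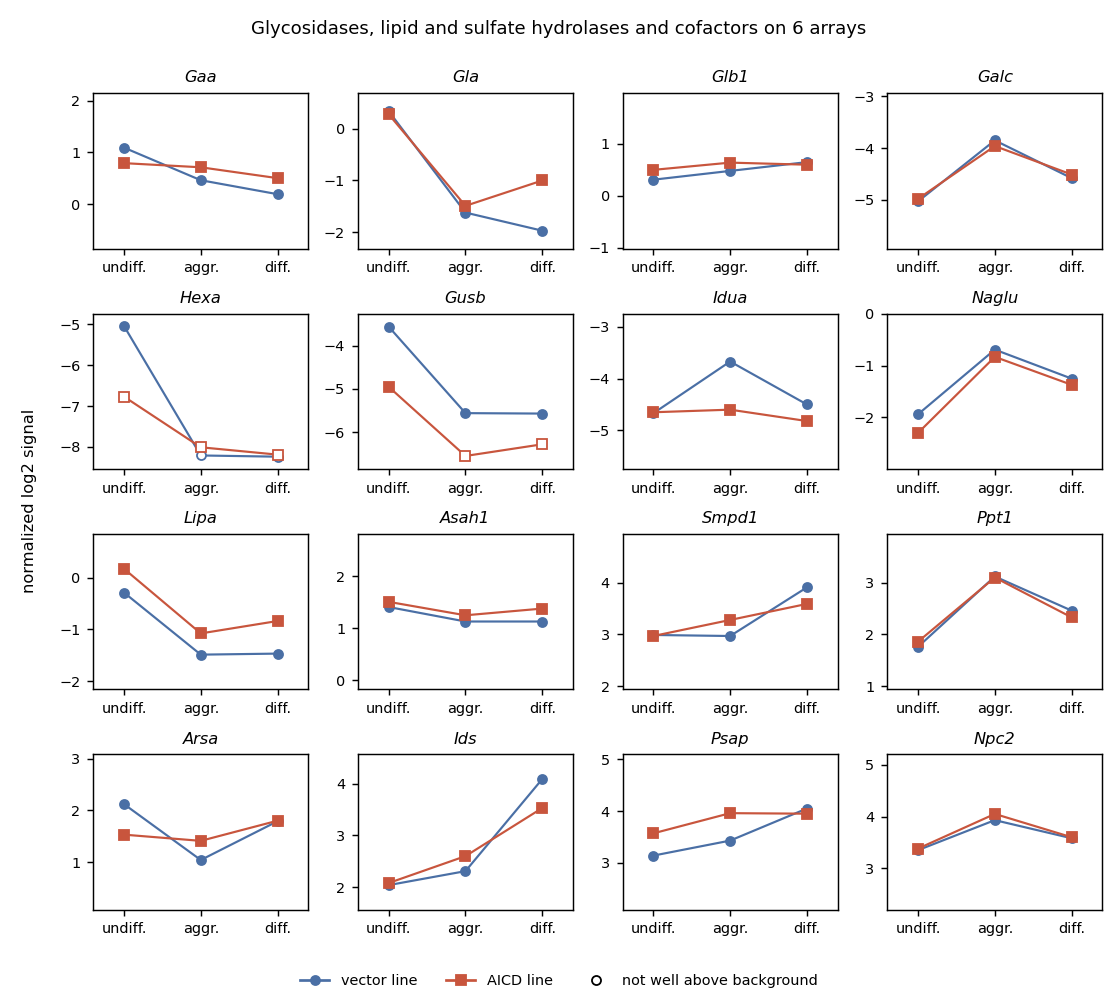
Normalized log2 signal of the 8 glycosidases and the 8 lipid and sulfate hydrolases and cofactors in the 3 states, vector line as circles and AICD line as squares, 1 array per point, open where not well above background; the axes of the panels differ. With the probes shown, Galc, Naglu, Ppt1 and Npc2 peak in the aggregates of both lines, and Ids is highest in differentiated cells (4.09 and 3.53).

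Of the 8 membrane proteins, 1 rose over the whole course (20.1% of all genes), 2 fell (41.3%) and 5 were not called. Their median was -0.05, beside -0.44 for all genes. With quantile normalization 4 were higher (22.9% of all genes) and 1 lower (33.9%). Lamp1 and Lamp2 are the most abundant glycoproteins of the lysosomal membrane. Lamp1 was at 5.44, 5.05 and 4.81 on the vector arrays and at 5.55, 5.43 and 4.93 on the AICD arrays. The whole range was 0.73, and its whole course of -0.62 ± 0.16 (limma adjusted p = 0.0343) became 0.14 (adjusted p = 0.425) with quantile normalization. Lamp2, which also takes up substrates of chaperone-mediated autophagy, was at 1.87, 3.38 and 2.96 in the vector line and at 2.82, 3.66 and 3.04 in the AICD line. The undifferentiated vector array was the lowest, and Lamp2 rose by 1.17 ± 0.27 in aggregation (2.25-fold, limma adjusted p = 0.035, and 0.0503 without the filter on dim probes). A second Lamp2 probe rose by 1.69 there, and the line difference of the probe used narrowed from 0.95 to 0.28 and 0.08.

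Scarb2, the receptor that carries glucocerebrosidase to the lysosome, was at 0.45, 1.16 and 1.76 in the vector line and at 0.47, 0.82 and 1.18 in the AICD line. Each line was higher in each later state, and the whole course was 1.01 ± 0.21 (2.02-fold, limma adjusted p = 0.0185). Npc1, the cholesterol exporter, was at -0.90, -1.87 and -1.11 in the vector line and at -1.14, -1.91 and -1.19 in the AICD line. The aggregated arrays were the lowest of both lines, with a step of -0.87 ± 0.15 (limma adjusted p = 0.0222) while Npc2 rose, and its whole course of -0.13 was not called (adjusted p = 0.492). Slc48a1 fell by 0.91 ± 0.16 over the whole course with the probe used (limma adjusted p = 0.0126), its second probe gave 0.10, and the mean of the probes was not called (-0.40, adjusted p = 0.138).

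Mcoln1, a calcium and iron channel, ranged from 4.00 to 4.47, Cd63, a tetraspanin, from 4.12 to 4.62, and Cln3, a membrane protein mutated in juvenile neuronal ceroid lipofuscinosis, from -0.49 to 0.01. None of these was called in any comparison under the percentile scaling. With quantile normalization Mcoln1 was 0.86 higher and Cd63 0.61 higher over the whole course (limma adjusted p = 0.0162 and 0.0411).

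M6pr, the cation-dependent mannose 6-phosphate receptor, was at 4.84, 3.28 and 3.70 on the vector arrays and at 4.18, 3.13 and 3.74 on the AICD arrays. The undifferentiated arrays were the highest, and M6pr fell by 1.31 ± 0.23 in aggregation (2.47-fold, limma adjusted p = 0.0222). The other probes of M6pr had whole courses of -1.21 and -1.24 against -0.79 for the probe used, and in replating they read -0.26 and -0.22 where the probe used read 0.52, so that the probes went opposite ways in that step. Tfeb was at -3.90, -4.66 and -4.47 in the vector line and at -3.81, -4.49 and -4.26 in the AICD line. Both lines were highest undifferentiated, with a step of -0.72 ± 0.15 in aggregation (limma adjusted p = 0.0286, and 0.126 with a normexp correction), and the AICD array was the higher in each state by 0.09 to 0.21.

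**Figure D5:**
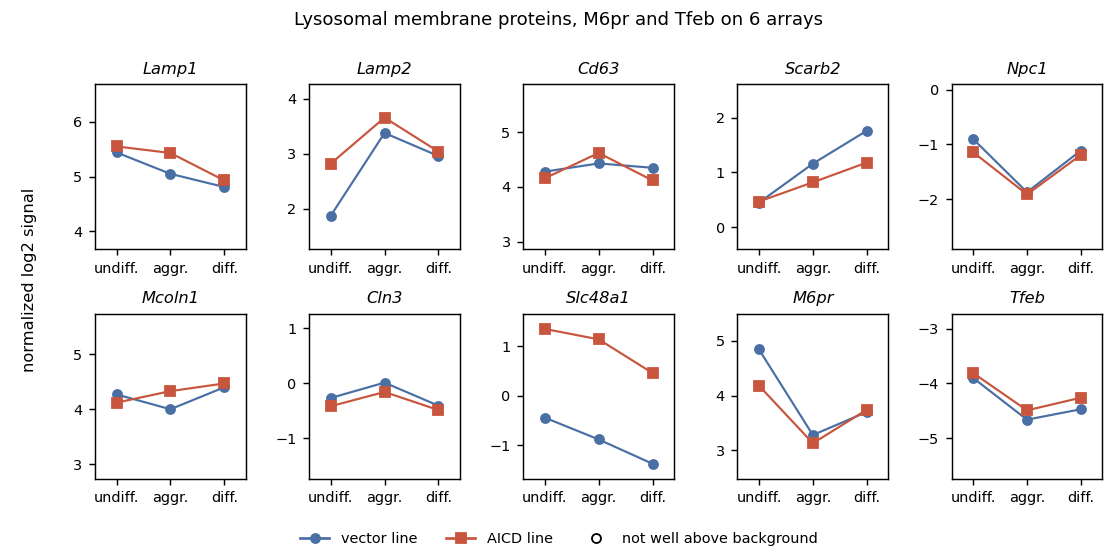
Normalized log2 signal of the 8 membrane proteins, M6pr and Tfeb in the 3 states, vector line as circles and AICD line as squares, 1 array per point; the axes of the panels differ. Slc48a1 is the panel in which the lines do not overlap (differences of 1.79 to 2.02), and Lamp2 starts with its lines 0.95 apart and ends with them 0.08 apart.

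Set against the promoters, the 13 genes holding CACGTG were Ctsa, Ctsd, Ctsf, Ctsl, Lgmn, Gaa, Gla, Glb1, Naglu, Arsa, Lamp1, Mcoln1 and Cln3. Of these, 0 were called between the lines, where 0.351% of all genes were. Over the whole course 1 rose (Naglu) and 6 fell, when 20.1% of all genes rose and 41.3% fell. Of 18 tested genes with a promoter and no such core, 1 (Ctsc) was called between the lines, and 6 were higher and 6 lower over the whole course. Slc48a1, the other gene called between the lines, had no promoter sequence at hand and is in neither group. With quantile normalization the whole course had 2 higher and 3 lower of the 13 genes and 10 higher and 5 lower of the 18. These counts are descriptions, and the difference between the groups was not tested.

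Other genes of lysosomes and of the pathways around them were counted for comparison. Of all genes tested 0.351% were called between the lines, so 0 calls in a list of this size is near that share. Between the lines, 0 of 25 other hydrolases, 0 of 18 other membrane proteins, 0 of 21 subunits of the proton pump that acidifies lysosomes (V-ATPase), 0 of 15 genes of the Tfeb family and nutrient signalling, 0 of 17 autophagy genes and 0 of 7 cathepsin inhibitors were called by limma. Of 17 genes of enzyme sorting 1 was called, Igf2r, the large cation-independent mannose 6-phosphate receptor. Igf2r was at -0.02, -0.10 and 0.26 on the vector arrays and at -4.61, -4.91 and -5.46 on the AICD arrays. Every AICD array was lower, with a fitted difference of -5.04 ± 0.27 (limma adjusted p = 0.0295). The probe used for M6pr had a line difference of -0.26 that was not called (limma adjusted p = 0.65). The other M6pr probes gave 0.24 and 0.30, in the opposite direction. Aga, which cleaves the bond between glycan and asparagine, was at -1.96, -2.82 and -3.01 in the vector line and at -0.48, -1.22 and -1.05 in the AICD line. Its AICD arrays were all above its vector arrays, at a difference of 1.69 ± 0.15 just short of the threshold (limma adjusted p = 0.0567).

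Over the whole course 20.1% of all genes rose and 41.3% fell, with a median of -0.44, and with quantile normalization 22.9% rose and 33.9% fell, with a median of -0.24. Of the 18 other membrane proteins 11 rose and 4 fell, with a median of 0.84, or 10 and 3 with quantile normalization. The largest rises were those of Slc17a5, the sialic acid exporter (1.8 ± 0.17), Slc36a1, an amino acid exporter (1.67 ± 0.27), and Abca2, a lipid transporter (1.46 ± 0.16), and Lamp3 (-1.96 ± 0.31) and Tmem192 (-1.84 ± 0.18) had the largest falls. Of 25 other hydrolases 4 rose and 9 fell, or 2 and 7 with quantile normalization, among them Cpq at 1.24, which then lost its call, and the heparan sulfatase Sgsh at -1.66. Of the 21 V-ATPase genes 4 rose and 7 fell, or 7 and 6 with quantile normalization, with Atp6v0e2 at 2.37 and Atp6v0a1, a subunit abundant in neurons, at 2.20. Of 17 sorting genes 1 rose, Gnptg, a subunit of the enzyme that makes the mannose 6-phosphate tag (2.02), and 5 fell, with Gga2 at -1.34. With quantile normalization these were 5 and 4.

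Tfe3, the relative of Tfeb that binds the same element, was at 1.0, -0.97 and -1.02 on the vector arrays and at 1.28, -0.77 and -0.03 on the AICD arrays. Both undifferentiated arrays were the highest, and Tfe3 fell by 1.67 ± 0.26 over the whole course (3.17-fold, limma adjusted p = 0.0107), 1 of 3 genes that fell among 15 of its list, of which 1 rose. With quantile normalization 4 rose and 1, Tfe3, fell. Of 17 autophagy genes 3 rose, with the kinase Ulk1 at 2.13, and 3 fell, with the receptor Optn at -2.61, or 9 and 4 with quantile normalization. Of 7 inhibitors of cathepsins 0 rose and 4 fell, among them cystatin B (Cstb) at -1.35, under both scalings. All 7 were well above background on both undifferentiated arrays, but only 4 on both aggregated and 4 on both differentiated arrays. Falls in this list can thus rest on readings near background, and their count is a description. The adjusted p of each gene named as risen or fallen in these lists was at or below 0.04.

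The genes whose normalized log2 signal over the 6 arrays was most like that of Ctsc, among 7639 genes well above background on every array and with a range of at least 1, were Tbrg1, Ccdc15, Aar2, Eif2ak2 and Ciao2a (Pearson r of 0.977 to 0.989). For Slc48a1 they were Paip2b, Hmox2, Ciao2a, Alms1 and Plin2 (0.981 to 0.985). These are descriptions over 6 arrays that share their lines and states, and carry no p.

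Markers of cell types moved with the states. The summed signal of the 7 embryonal carcinoma markers with a probe, over the 75th percentile, was 128 and 118 in undifferentiated vector and AICD cells, 11.1 and 17.3 in aggregates and 4.97 and 17.4 in differentiated cells, and Zfp42 was not well above background on any array. The 9 neuron markers went from 13.3 and 14.9 to 49 and 76.6 and then to 190 and 144. The 11 markers of extraembryonic endoderm were at 8.74 and 21.8 in undifferentiated cells and between 1.58 and 3.3 later, with Ttr and Apoa1 not well above background on any array. Their part in the steps of the lysosomal genes was not tested.

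Markers of cells rich in particular cathepsins were also read. The 10 markers of macrophages and microglia summed to between 0.285 and 0.78, with 4 to 7 of them well above background on each array and Ptprc and Itgam on none. Of the 6 tested, Aif1 was called higher over the whole course, and Cd14, Csf1r, Fcer1g and Mpeg1 fell. Aif1 signal stood well above background in aggregated and differentiated cells of both lines, and in undifferentiated cells of neither. Its call thus used readings near background, and it passed the filter through the later arrays. The rise of Aif1 is a description, with no size or p given. The 6 osteoclast markers summed to 7.19 and 3.66 in undifferentiated cells and to between 0.194 and 0.561 later, and Acp5 and Tnfrsf11a were not well above background on any array after the undifferentiated state. On the differentiated vector array, which carried Ctsk signal, Dcstamp and Mmp9 were well above background, as on no other array, and on the differentiated AICD array, which carried Ctsk signal too, they were not. Their part in the Ctsk signal was not tested. The 9 mesenchyme markers differed between the lines: they summed to 3.15, 7.09 and 31.5 in the vector line and to 2.09, 1.36 and 0.784 in the AICD line. None of the 9 was called between the lines (0.351% of all genes were), and their part in the line differences was not tested.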

How the data were processed

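P19 cells of 2 lines in 3 states were measured on 6 one-colour Agilent arrays, 1 per line and state. Per the submitters' processing notes the scanner files come from Agilent Feature Extraction, version 10.1.1.1. The deposited intensity used is its processed signal, already background-corrected. Values are log2 intensity minus the array's 75th percentile, and spots of a probe were averaged. The authors' own value table is a score whose scale was not stated in the sources used here. For a check, scores below 1 were first replaced by minus their inverse. They were set against log2 signal minus the 75th percentile, centred on each probe's median over the 6 arrays. The scores matched that within 0.01 for 99.3 to 99.7% of the listed values and served as an alternative. Genes were named through the RefSeq accession of each probe, 28459 of 41174 probes passed the filter (well above background on at least 2 arrays), and 13381 genes were tested.

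limma 3.58.1 (R 4.3.3) fitted state and line as additive terms, and the script was tested on simulated data. The spread is that between these arrays, with no replicate of a line and state. Alternatives were normexp (offset 50, on median spot signal, the column at hand), quantile normalization, the mean over probes, 2 other filters, leaving out each array, and the second slide alone. Where an array was not well above background, a fold is given as at least the ratio to the lowest signal well above background on that array. The genes, lists, markers and rules were chosen with earlier results of these data known. Genes with values on every array were those called, those 2-fold apart between the lines in a state, and the 3 of each role with the widest range; a few others were added.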

Additional observations from a re-analysis of the deposited data

Results flagged for a closer look

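Ctso had line differences in opposite directions at the ends of the course. The AICD line was higher by 1.16 (log2) in undifferentiated cells, and the line difference was -1.04 in differentiated cells, where it was lower. Each value is the difference of 2 single arrays, and the difference between the states was not tested. With a normexp background correction the undifferentiated value was 0.16.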

How the results depend on the processing

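Line difference: the 2 genes called among the 37 became 1 with the mean over probes, 0 without a filter, 1 on the second slide alone and 0 to 1 with 1 array left out. The 47 calls over all genes became 76 with normexp, 0 without a filter, 97 on the second slide alone and 0 to 97 with 1 array left out. Aggregation kept its counts within 1.5 times except with 1 array left out, at 0 to 13 of the 37 and 0 to 4185 of all genes. Replating, with 0 calls, had 2 of the 37 and 1402 of all genes with normexp, 733 of all genes when every array had to be well above background, and 0 with any 1 array left out. The whole course had 2 to 17 and 879 to 6628 with 1 array left out. Genes at least 2-fold apart between the lines went from 5 to 3 with normexp in undifferentiated cells. In the authors' deposited values, which list 3, 0 and 3 of the genes on both arrays of a state, they were 1, 0 and 0. Of single genes, the whole course of Ctsk was -0.07 with normexp and that of Lamp1 0.14 with quantile normalization, both with the sign turned, and the cause was not tested. Of the other values of single genes, 330 were kept, 161 kept direction but missed the threshold, and 12 moved. A fitted value was kept if its direction and side of the threshold stayed, which includes line differences never called. A line difference within a state has no threshold. It was kept if it stayed within the spread expected of replicate spots, and moved if it did not. The line difference is paired by state, since the fit compares the lines within each state, and each group has 1 replicate number, which gave no further block. With 6 arrays and 2 residual degrees of freedom, signal near background limits Ctsk, Gusb, Hexa and Ctss, and the p-values of Ctsk and Gusb rest in part on readings not well above background.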
